A study of Mus musculus with 10 samples.

Results

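Transcript levels of bone morphogenetic protein (BMP) signalling genes and of the Id genes were followed across the arrays of mouse embryonic stem cells (ESCs) depleted of Wapal or Smc3. The 10 genes were Bmp2, Bmp4, Bmpr1a, Bambi, Smad6, Smad7, Id1, Id2, Id3 and Id4. Every probe set whose single gene symbol in the platform annotation was one of these was taken, which gave 20 of 45037 probe sets and 10 of 18193 genes. Where a gene had several probe sets, the one with the highest mean log2 intensity over the 10 arrays stood for the gene, and the others are given beside it.

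The cells were CJ9 ESCs, which derive from strain 129SvJ. The 5 groups had 2 arrays each: Empty Vector as the control, a first and a second hairpin against Wapal (Wapal shRNA1 and Wapal shRNA2), and a first and a second against Smc3 (Smc3 shRNA1 and Smc3 shRNA2). All groups, the controls included, received a pLKO.1 lentivirus during 48 h of infection with polybrene at 10 µg/mL, and the ESC medium that followed held LIF and puromycin at 4 µg/mL. RNA was taken 48 h after infection from cells of 1 line, and Wapal (gene symbol Wapl) unloads cohesin from chromatin while Smc3 is a core cohesin subunit. The Empty Vector virus carries no hairpin, so depletion of a target and expression of a hairpin as such cannot be told apart against it.

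BMP ligands bind a pair of receptor types at the cell surface, and the type I receptor then phosphorylates Smad1, Smad5 and Smad9, which enter the nucleus with Smad4 and act on target genes. Among the best known targets are the Id genes, whose products hold E proteins and other helix-loop-helix factors away from DNA, and the inhibitory Smads, which feed back on the receptors. In mouse ESCs kept with LIF, BMP signals and Id proteins are known to restrain neural differentiation.

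The deposited values are intensities on a linear scale made by robust multi-array average (RMA), and differences were tested on log2 values. The brightest Wapl probe set fell by 81.8% with the Wapal shRNAs (limma adjusted p = 0.000123) and the brightest Smc3 probe set fell by 87.5% with the Smc3 shRNAs (limma adjusted p = 3.26e-05), and no array overlapped the controls. All 8 ESC markers examined, Pou5f1 and Sox2 among them, had a mean log2 intensity above 6, a level below which 59.6 to 60.1% of probe sets lay on each array and which is called dim here. The array medians lay between 38.6 and 39.7. Across all probe sets the arrays also fell on 2 sides that cut across the groups, with 123 probe sets separated by more than 0.3 in log2. One side held Empty Vector replicate 1, Wapal shRNA1 and Smc3 shRNA2, and the other held Empty Vector replicate 2, Wapal shRNA2 and Smc3 shRNA1. The labels name no batch, so each shRNA is also set against the single Empty Vector array of its own side. Neither the labels nor the methods say whether the Smc3 arrays were hybridised with the others, and its part in the Smc3 values was not tested.

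With Wapal depletion 1 of the 10 genes was called, Id1, which rose. With Smc3 depletion 6 of the 10 were called: Id2 rose, and Bmp4, Id3, Id4, Smad6 and Smad7 fell. A gene was called where the adjusted p of its brightest probe set was under 0.05 (limma, two-sided, Benjamini-Hochberg over all 45037 probe sets). The fit held 1 mean for each group, so its standard errors and p-values leave out the spread between the hairpins of a target. Over all genes, Wapal depletion called 2.63% higher and 4.93% lower, beside 1 higher and 0 lower of the 10 (1 lower, Smad7, at an unadjusted limma p under 0.05, and 0 by the methods' t-test). Smc3 depletion called 6.08% of all genes higher and 3.94% lower, beside 1 higher and 5 lower of the 10. The median log2 difference of the 10 genes was -0.11 with Wapal depletion and -0.32 with Smc3 depletion, and that of all genes was 0.01 in both. Both comparisons use the same 2 Empty Vector arrays, so their values are set side by side. RNA came from whole cultures, in which fewer cells of a type and less RNA per cell cannot be told apart.

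**Figure D1:**
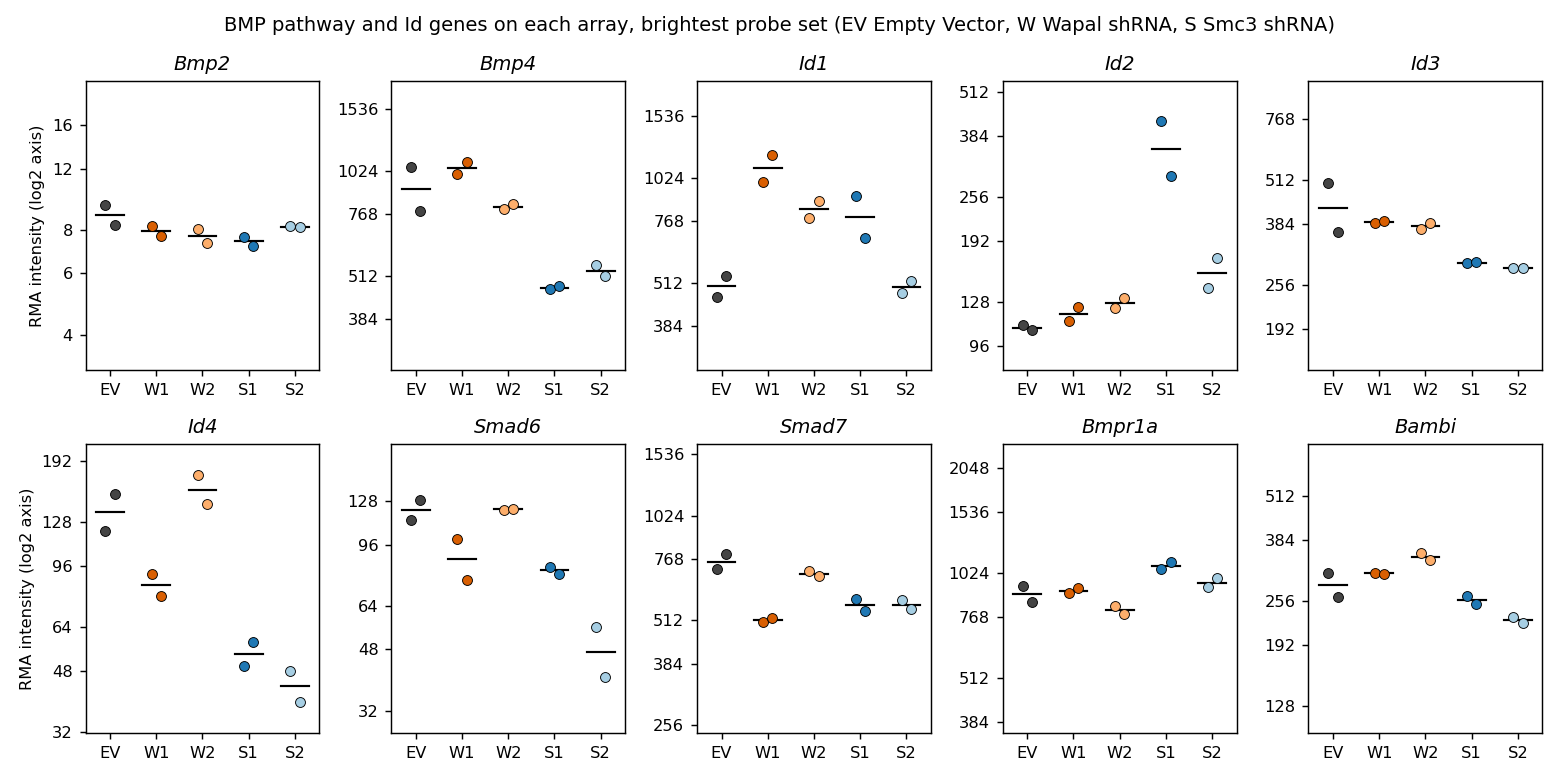
RMA intensity of the brightest probe set of each gene on every array (log2 axis). Points are single arrays, EV is Empty Vector, W1 and W2 are the Wapal shRNAs, S1 and S2 are the Smc3 shRNAs, and the bars are geometric means of 2 arrays. All 4 Smc3 arrays lie below both Empty Vector arrays for Bmp4, Id3, Id4, Smad6 and Smad7, and above them for Id2, while Id1 is above them on all 4 Wapal arrays.

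Of the ligands, Bmp4 was bright and Bmp2 was dim. Bmp4 encodes a ligand that ESCs make themselves, and its intensity was 1049 and 785 in the controls. The Smc3 hairpins gave 469 and 477 (shRNA1) and 548 and 512 (shRNA2), and the Wapal hairpins 1004 and 1084 (shRNA1) and 794 and 822 (shRNA2). The 4 Smc3 arrays lay below every other array, and the 4 Wapal arrays spread over the range of the controls. Bmp4 fell by 44.8% with Smc3 depletion (log2 difference -0.86 ± 0.12 SE, n = 4 against 2 arrays, limma adjusted p = 0.00565). With Wapal depletion the log2 difference was 0.02 ± 0.13, with a 95% interval of -0.27 to 0.31 (limma adjusted p = 0.954). Within sides Bmp4 was lower by a log2 difference of -0.73 with Smc3 shRNA1 and -0.98 with Smc3 shRNA2. The related ligand gene Bmp2 had intensities between 7.20 and 9.40 on all 10 arrays, and it was called in neither depletion (log2 difference -0.17 ± 0.10 and -0.18 ± 0.10, limma adjusted p = 0.347 and 0.337).

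Bmpr1a encodes a type I BMP receptor, and it was called in neither depletion. Its brightest probe set had an intensity of 938 and 846 in the controls. The Wapal hairpins gave 900.3 and 925 (shRNA1) and 821 and 779 (shRNA2), and the Smc3 hairpins 1053 and 1101 (shRNA1) and 934 and 989 (shRNA2). Smc3 shRNA1 lay above both controls and Wapal shRNA2 below both, and the other shRNA groups overlapped the controls. The log2 difference was -0.06 ± 0.09 with Wapal depletion (95% interval -0.28 to 0.16) and 0.19 ± 0.09 with Smc3 depletion (95% interval -0.02 to 0.41). The other 5 Bmpr1a probe sets, 2 of them dim, were not called either, and their log2 differences ran from -0.32 to 0.08 with Wapal depletion and from -0.17 to 0.15 with Smc3 depletion.

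Bambi encodes a pseudoreceptor that lacks the kinase part and damps BMP and TGF-beta signals. The controls had an intensity of 308 and 263. The Wapal hairpins gave 308 and 307 (shRNA1) and 351 and 335 (shRNA2), and the Smc3 hairpins 265 and 250.4 (shRNA1) and 230.3 and 221 (shRNA2). Wapal shRNA2 lay above both controls, Smc3 shRNA2 below both, and the other groups overlapped them. The log2 difference was 0.19 ± 0.10 with Wapal depletion (limma adjusted p = 0.301) and -0.24 ± 0.10 with Smc3 depletion (limma adjusted p = 0.210).

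Smad6 and Smad7 encode the inhibitory Smads, which block the activated receptors. Smad6 intensity was 113 and 129 in the controls. The Smc3 hairpins gave 82.8 and 79.2 (shRNA1) and 55.7 and 40.1 (shRNA2), and the Wapal hairpins 99.9 and 75.9 (shRNA1) and 121 and 122 (shRNA2). All 4 Smc3 arrays lay below both controls, Smc3 shRNA2 lowest of all. Wapal shRNA1 also lay below both controls, whereas Wapal shRNA2 lay between them. Smad6 fell by 48.7% with Smc3 depletion (log2 difference -0.96 ± 0.14, limma adjusted p = 0.00543) and was not called with Wapal depletion (-0.23 ± 0.13, limma adjusted p = 0.318).

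Smad7 was lower by less. Its brightest probe set had an intensity of 718 and 792 in the controls. The Smc3 hairpins gave 589 and 546 (shRNA1) and 588 and 551 (shRNA2), and the Wapal hairpins 506 and 520.3 (shRNA1) and 708 and 689 (shRNA2). All 8 shRNA arrays lay below both controls, Wapal shRNA2 only just. Smad7 fell by 24.7% with Smc3 depletion (log2 difference -0.41 ± 0.10, limma adjusted p = 0.0376), and the second probe set gave -0.37 ± 0.10 with an adjusted p of 0.0668 in the same limma fit. With Wapal depletion the log2 difference was -0.33 ± 0.09 (limma adjusted p = 0.0755), and it was called once all 10 arrays shared 1 model (limma adjusted p = 0.0365). The Smc3 call was lost when any 1 of the 6 arrays was left out (limma adjusted p from 0.0681 to 0.120).

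The 4 Id genes did not move together. For comparison of the genes themselves, the stretch from 250 bases before to 50 bases after the start is printed for the Id genes that changed with Smc3 depletion, in the direction of transcription (RefSeq, build GRCm38.p6). Id2 lies at chr12:25096043-25096342 on the minus strand, Id3 at chr4:136143572-136143871 on the plus strand and Id4 at chr13:48260866-48261165 on the plus strand. Capitals mark GGCGCC, which reads the same on both strands and is the core bound by BMP Smads in Id promoters, and GTCTG, the Smad box, which appears as CAGAC where it lies on the opposite strand.
Id2: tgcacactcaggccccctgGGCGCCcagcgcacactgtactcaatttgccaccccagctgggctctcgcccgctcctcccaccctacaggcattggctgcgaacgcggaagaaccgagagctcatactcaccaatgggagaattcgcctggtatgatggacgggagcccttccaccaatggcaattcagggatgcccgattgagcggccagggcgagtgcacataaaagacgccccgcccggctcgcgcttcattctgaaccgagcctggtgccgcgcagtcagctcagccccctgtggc
Id3: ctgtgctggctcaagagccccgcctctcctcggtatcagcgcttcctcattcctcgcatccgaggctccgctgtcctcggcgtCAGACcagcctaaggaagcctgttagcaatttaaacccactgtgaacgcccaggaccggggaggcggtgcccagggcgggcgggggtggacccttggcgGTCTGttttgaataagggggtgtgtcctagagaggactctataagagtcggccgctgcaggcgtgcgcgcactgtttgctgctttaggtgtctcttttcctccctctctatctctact
Id4: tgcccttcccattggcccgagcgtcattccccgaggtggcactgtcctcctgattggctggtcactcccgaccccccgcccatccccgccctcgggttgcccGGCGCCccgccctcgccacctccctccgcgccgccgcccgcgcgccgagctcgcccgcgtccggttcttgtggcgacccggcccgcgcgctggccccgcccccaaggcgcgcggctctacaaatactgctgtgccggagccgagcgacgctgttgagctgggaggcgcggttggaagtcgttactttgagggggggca

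Id2, which rose, and Id4, which fell, both hold GGCGCC, at base -231 and base -148 from the start, and neither holds GTCTG. Id3, which also fell, holds GTCTG at bases -167 (opposite strand) and -68 but not GGCGCC. The same stretches of Bmp4 and Smad6 held neither. Of 32851 mouse promoter stretches of this length, 11.9% hold GGCGCC and 49.6% hold GTCTG, and a match is a description of letters, not of a bound site. No stretch for Id1 or Smad7 was used, so 5 of the 7 called genes were searched.

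Id1 rose with Wapal depletion. The controls had an intensity of 467 and 533. The Wapal hairpins gave 997 and 1193 (shRNA1) and 786 and 879 (shRNA2), and the Smc3 hairpins 909.6 and 687 (shRNA1) and 477 and 516 (shRNA2). The 4 Wapal arrays and both Smc3 shRNA1 arrays lay above both controls, whereas Smc3 shRNA2 lay between them. Wapal depletion raised Id1 1.91-fold (log2 difference 0.93 ± 0.12, n = 4 against 2 arrays, limma adjusted p = 0.00729). Within sides the log2 difference was 1.22 with Wapal shRNA1 and 0.64 with Wapal shRNA2. The mean of both Smc3 shRNAs gave 0.33 ± 0.13 (limma adjusted p = 0.188).

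Id2 rose with Smc3 depletion, mostly through 1 shRNA. Control arrays read 110.1 and 106. The Smc3 hairpins gave 424 and 294 (shRNA1) and 141 and 172 (shRNA2), and the Wapal hairpins 113 and 124 (shRNA1) and 123 and 132 (shRNA2). All 8 shRNA arrays lay above both controls, and the Smc3 shRNA1 arrays stood apart from all others. Smc3 depletion raised Id2 2.17-fold (log2 difference 1.11 ± 0.15, limma adjusted p = 0.00450), and the Wapal value was 0.18 ± 0.10 (limma adjusted p = 0.288). The second probe set, at 93.0 and 89.2 in the controls, reached 413 and 321 (Smc3 shRNA1) and 123 and 152 (Smc3 shRNA2), an Smc3 log2 difference of 1.29 ± 0.13 (limma adjusted p = 0.00134). The last Id2 probe set was dim, stayed between 9.24 and 15.4, and was not called.

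Id3 was lower on the Smc3 arrays, but the controls lay apart. Control arrays read 502 and 364. The Wapal hairpins gave 387 and 391 (shRNA1) and 372 and 387 (shRNA2), and the Smc3 hairpins 296 and 298 (shRNA1) and 287 and 286 (shRNA2). The 4 Smc3 arrays lay close together below all others, and the 4 Wapal arrays lay between the controls. Id3 fell by 31.7% with Smc3 depletion (log2 difference -0.55 ± 0.13, limma adjusted p = 0.0393), and within sides by a log2 difference of -0.29 with Smc3 shRNA1 and -0.81 with Smc3 shRNA2. Without Empty Vector replicate 1, the brighter control, the Smc3 log2 difference was -0.32 and was not called (limma adjusted p = 0.184). Leaving out any 1 Smc3 array also ended the call (limma adjusted p from 0.104 to 0.120). With Wapal depletion the log2 difference was -0.16 ± 0.13, with a 95% interval of -0.46 to 0.15.

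Id4 had the lowest log2 difference of the 10 genes with Smc3 depletion. Its brightest probe set had an intensity of 121 and 154 in the controls. Smc3 depletion left 49.4 and 57.9 (shRNA1) and 47.9 and 39.1 (shRNA2), and the Wapal hairpins gave 90.7 and 78.6 (shRNA1) and 175 and 144 (shRNA2). The Smc3 arrays lay below every other array, Wapal shRNA1 between them and the controls, and Wapal shRNA2 overlapped the controls. Id4 fell by 64.8% with Smc3 depletion (log2 difference -1.50 ± 0.14, limma adjusted p = 0.000897), and the other 2 probe sets gave -0.78 ± 0.11 and -1.57 ± 0.10 (limma adjusted p = 0.00445 and 0.000191), the last of them dim. The 3 probe sets gave log2 differences of -0.24, -0.10 and -0.31 with Wapal depletion, and none was called.

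Whether the depletions differed was tested directly as Wapal depletion minus Smc3 depletion, in 1 limma fit of all 10 arrays. With Wapal depletion 6 genes were higher than with Smc3 depletion and 2 were lower, beside 7.66% of all genes called higher and 14.8% called lower. Id4 differed by 1.27 ± 0.11 in log2 (limma adjusted p = 8.85e-05), Bmp4 by 0.88 ± 0.09 (limma adjusted p = 0.000192) and Smad6 by 0.73 ± 0.12 (limma adjusted p = 0.00202). Id1 differed by 0.60 ± 0.11 (limma adjusted p = 0.00317). The call was lost in a fit of 1 mean per target with the side of the array as a covariate (limma adjusted p = 0.0526). That fit also pools the hairpins of a target, so the loss cannot be assigned to the side. Bambi, which neither depletion called alone, differed by 0.43 ± 0.07 (limma adjusted p = 0.00301), and Id3 by 0.40 ± 0.10 (limma adjusted p = 0.0167), a call lost without any 1 of 4 shRNA arrays (limma adjusted p up to 0.0549). Lower with Wapal depletion were Id2 (-0.93 ± 0.11, limma adjusted p = 0.000452) and Bmpr1a (-0.25 ± 0.07, limma adjusted p = 0.0316). The Bmpr1a value rests on its brightest probe set, since none of the other 5 was called, 1 of them ran the other way (0.19 ± 0.07), and leaving out any 1 shRNA array ended the call (limma adjusted p from 0.0612 to 0.0983). Smad7 and Bmp2 were not called, with log2 differences of 0.08 (95% interval -0.08 to 0.23) and 0.01 (95% interval -0.16 to 0.17).

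**Figure D2:**
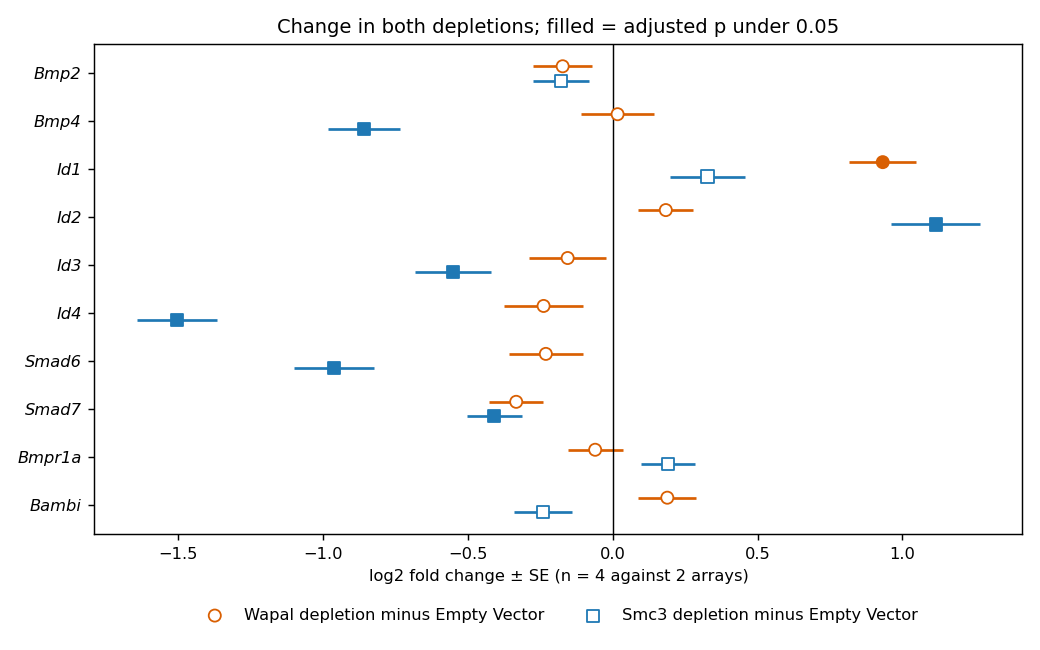
Log2 fold change of each gene with Wapal depletion (circles) and Smc3 depletion (squares) against Empty Vector, with bars of 1 standard error (n = 4 against 2 arrays). Filled symbols have a limma adjusted p under 0.05, and both comparisons share the 2 Empty Vector arrays. Id1 is the filled circle at 0.93, and the filled squares run from -1.50 for Id4 to 1.11 for Id2.

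Each hairpin was then set against Empty Vector by itself (n = 2 against 2 arrays). Wapal shRNA1 called 3 of the 10 genes, beside 6.03% of all genes: Id1 (1.13 ± 0.13, limma adjusted p = 0.00756) was higher, and Id4 (-0.69 ± 0.16, limma adjusted p = 0.0474) and Smad7 (-0.55 ± 0.11, limma adjusted p = 0.0300) were lower. The other probe sets of Id4 (limma adjusted p = 0.0897 and 0.0532) and Smad7 (limma adjusted p = 0.0603) were also lower with Wapal shRNA1 but not called. Wapal shRNA2 called Id1 alone (0.74 ± 0.13, limma adjusted p = 0.0281), beside 4.81% of all genes. Smc3 shRNA1 called 4, beside 11.6% of all genes, with Id2 (1.71 ± 0.18, limma adjusted p = 0.00123) and Id1 (0.66 ± 0.15, limma adjusted p = 0.0310) higher and Id4 (-1.35 ± 0.16, limma adjusted p = 0.00232) and Bmp4 (-0.94 ± 0.14, limma adjusted p = 0.00642) lower. Smc3 shRNA2 called 3, all lower, beside 9.52% of all genes: Id4 (-1.66 ± 0.16, limma adjusted p = 0.00122), Smad6 (-1.35 ± 0.16, limma adjusted p = 0.00267) and Bmp4 (-0.78 ± 0.14, limma adjusted p = 0.0159). Bmp4 and Id4 were thus called lower by each Smc3 hairpin, and Id1 higher by each Wapal hairpin.

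The hairpins against 1 target were also compared with each other. Between the Wapal hairpins only Id4 was called, lower with shRNA1 than with shRNA2 (-0.91 ± 0.16, limma adjusted p = 0.0422), beside 0.434% of all genes called higher and 1.02% called lower. The other Id4 probe sets were lower too but not called (limma adjusted p = 0.0503 and 0.113). The Id4 call was lost without any 1 of the 4 Wapal arrays (limma adjusted p from 0.184 to 0.271) and with the replicate number as a block (limma adjusted p = 0.0582). At an unadjusted limma p under 0.05, Bmp4 and Id1 were higher and Id4, Smad6 and Smad7 lower with shRNA1, which was 2 and 3 genes, as it was by the methods' t-test. Wapl itself was less reduced by shRNA1, at 929 and 1005, than by shRNA2, at 235 and 217, against 2500.1 and 2648 with Empty Vector. Between the Smc3 hairpins 3 genes were higher with shRNA1, namely Id2 (1.19 ± 0.18, limma adjusted p = 0.00596), Smad6 (0.78 ± 0.16, limma adjusted p = 0.0201) and Id1 (0.67 ± 0.15, limma adjusted p = 0.0271), and 0 were lower, also at an unadjusted limma p under 0.05. The methods' t-test, unadjusted, gave 1 higher and 0 lower, and 0 of either after Benjamini-Hochberg. With 1 array left out the calls of Id1 and Smad6 were each lost for 3 arrays (limma adjusted p up to 0.174 and 0.129) and that of Id2 for 1 (0.0684). Of all genes 7.87% were called higher and 4.63% lower in that comparison. The 2 hairpins against each target lie on opposite sides of the array sides described above, so within each pair the hairpin and the side cannot be told apart. Values against the Empty Vector array of the same side kept the order for all 4 genes: Id4 was -0.52 with Wapal shRNA1 and 0.04 with shRNA2, Id2 1.73 and 0.50, Smad6 -0.67 and -1.25, and Id1 0.57 and 0.09 with Smc3 shRNA1 and shRNA2.

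**Figure D3:**
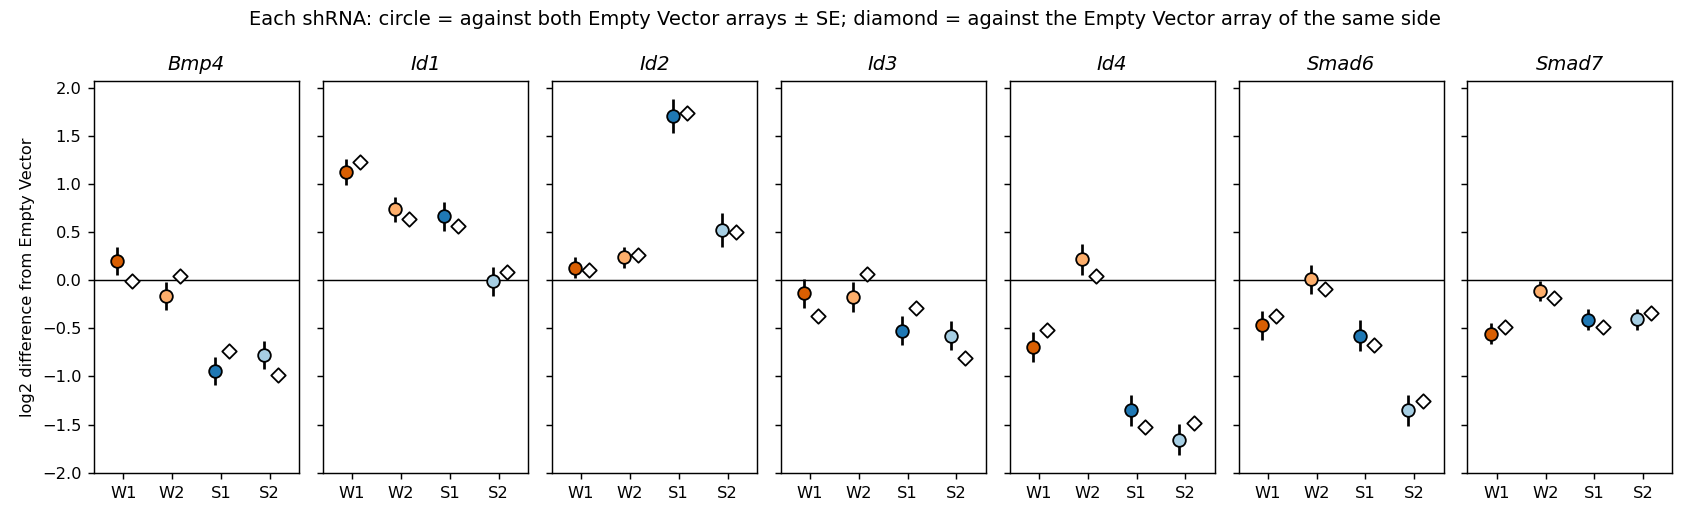
Log2 difference of each hairpin from Empty Vector for the 7 genes called in a depletion. Circles are the value against both Empty Vector arrays with bars of 1 standard error (n = 2 against 2), and diamonds the value against the single Empty Vector array on the same side. For Id2 the Smc3 shRNA1 circle lies at 1.71 and the Smc3 shRNA2 circle at 0.52, while Bmp4 and Id4 are lower with both Smc3 hairpins by either measure.

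Some markers of other cell types were also higher on the Smc3 shRNA1 arrays, where Id2 was highest. The summed intensity of 8 trophectoderm markers, 5 of them dim, was 683 and 779 with Smc3 shRNA1, against 477 and 520.5 with Empty Vector, 644 and 645 with Wapal shRNA2, 430.5 and 465 with Wapal shRNA1, and 444 and 464 with Smc3 shRNA2. Id2 read 123 and 132 with Wapal shRNA2 and 141 and 172 with Smc3 shRNA2. Most of the rise with Smc3 shRNA1 was in the keratin gene Krt18, at 367 and 264 with Smc3 shRNA1 and 153 and 135 with Empty Vector. Cdx2 and Elf5 were among the 5 dim markers. None of the 8 was called in either depletion, and their part in the Id2 value was not tested. All 8 primitive endoderm and all 7 mesoderm markers were dim, as were 7 of 8 fibroblast markers, whose summed intensity was 311 and 364 with Empty Vector and ran from 236 to 327 on the shRNA arrays. Some of these markers were called all the same. Thy1, the fibroblast marker that was not dim, was lower with Wapal depletion (-0.65 ± 0.11, limma adjusted p = 0.0191) and with Smc3 depletion (-0.92 ± 0.10, limma adjusted p = 0.00173), and Dcn was higher in both (0.48 ± 0.10 and 0.52 ± 0.10, limma adjusted p = 0.0384 and 0.0147). Pdgfrb was lower with Wapal depletion (-0.68 ± 0.14, limma adjusted p = 0.0299) and higher with Smc3 depletion (0.57 ± 0.14, limma adjusted p = 0.0389), at 113 and 104 with Smc3 shRNA1 against 40.4 and 56.4 with Empty Vector. The primitive endoderm marker Pdgfra was higher with Smc3 depletion (0.51 ± 0.11, limma adjusted p = 0.0282), at 41.9 and 38.5 with Smc3 shRNA1 against 24.4 and 20.5. The other primitive endoderm markers were not called in that depletion and were mixed on the Smc3 shRNA1 arrays. Dab2 and Foxa2 lay above both controls, Gata4, Gata6, Sox7 and Afp below both, and Sox17 overlapped them. Pdgfrb and Pdgfra were thus high on the same Smc3 shRNA1 arrays as Id2, and their part in the Id2 value was not tested. Of the ESC markers, Nanog (-0.71 ± 0.09, limma adjusted p = 0.00297) and Zfp42 (-0.44 ± 0.10, limma adjusted p = 0.0282) were lower with Smc3 depletion alongside Bmp4 and Id4, and none was called with Wapal depletion.

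The rest of the pathway was read from lists of 71 other BMP genes, of which 67 were measured and 37 were dim. With Wapal depletion 3 of the 67 rose and 1 fell, beside 2.63% of all genes called higher and 4.93% lower, so 5.97% of the list was called, no more than of all genes. With Smc3 depletion 6 rose and 4 fell, which is 14.9% of the list, beside 6.08% of all genes called higher and 3.94% lower. The median log2 differences were 0.05 in both, against 0.01 for all genes. Among 12 receptor genes, the type I receptor Bmpr1b was higher in both depletions (0.74 ± 0.13 with Wapal, limma adjusted p = 0.0195, and 1.22 ± 0.13 with Smc3, limma adjusted p = 0.00169), on a dim probe set. The Wapal rise was mostly in shRNA2, at 49.2 and 43.1, beside 26.3 and 27.2 with shRNA1 and 24.2 and 18.3 with Empty Vector. The type II receptors Bmpr2 (0.59 ± 0.11, limma adjusted p = 0.0139) and Acvr2a (0.41 ± 0.09, limma adjusted p = 0.0345) were higher with Smc3 depletion, where Bmpr1a gave 0.19. For Bmpr2 the Wapal log2 difference of 0.05 averages hairpins that moved in opposite directions. Its controls read 506 and 554. Wapal shRNA1 lay below both, at 442 and 409, and Wapal shRNA2 above both, at 743 and 666. None of the 9 other ligand genes measured was called in either depletion, but 7 of them were dim.

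Of the 8 genes for Smads and their nuclear partners, only Zfp423, whose product joins BMP Smads on DNA, was called, and it was lower in both depletions (-0.87 ± 0.14 with Wapal, limma adjusted p = 0.0149, and -0.64 ± 0.15 with Smc3, limma adjusted p = 0.0431). The Smc3 fall came mostly from shRNA1, at 79.3 and 74.0 against 173 and 154 with Empty Vector. Smc3 shRNA2 gave 175 and 118, with replicate 1 above both controls, whereas every Wapal array lay below both. Smad1, Smad4, Smad5 and Smad9, which carry the signal, were called in neither, with log2 differences between -0.19 and 0.13. For Smad5 the Smc3 log2 difference of 0.04 averages hairpins that moved in opposite directions. Its controls read 195 and 231. Smc3 shRNA1 exceeded both, at 287 and 276, while Smc3 shRNA2 stayed under both, at 172 and 168. Of the 17 genes measured from the list of extracellular antagonists and modulators, 14 were dim. Fst, which traps activins and BMPs, fell with Smc3 depletion (-1.18 ± 0.11, limma adjusted p = 0.000966), from 66.4 and 60.3 with Empty Vector to between 24.2 and 33.9. Its relatives Fstl1 (0.55 ± 0.09, limma adjusted p = 0.00902) and Fstl3 (0.70 ± 0.14, limma adjusted p = 0.0196) rose, and the Fst and Fstl3 probe sets are dim. With Wapal depletion these genes differed in the same directions but were not called. Fst gave -0.45 ± 0.12 (limma adjusted p = 0.0614), Fstl1 0.36 ± 0.09 (limma adjusted p = 0.0554) and Fstl3 0.55 ± 0.18 (limma adjusted p = 0.120). Every Wapal array lay below both controls for Fst and above both for Fstl1.

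Among 9 intracellular inhibitors, Skil, which encodes the Smad repressor SnoN, was higher in both depletions, by 0.90 ± 0.11 with Wapal (limma adjusted p = 0.00763) and 1.35 ± 0.11 with Smc3 (limma adjusted p = 0.000558). Its intensity was 1289.8 and 1633 with Empty Vector, at least 2554 on the Wapal arrays and at least 3018 on the Smc3 arrays, so no array overlapped the controls. Tob1, which restrains BMP Smads, fell with Smc3 depletion (-0.78 ± 0.09, limma adjusted p = 0.00262), as did Dusp9, a phosphatase gene induced by BMP in ESCs (-0.65 ± 0.16, limma adjusted p = 0.0497). Hey1, a target encoding a repressor, was called higher with Wapal depletion (0.49 ± 0.11, limma adjusted p = 0.0381). The depletions differed (0.48 ± 0.08, limma adjusted p = 0.00301). The Smc3 log2 difference of 0.01 for Hey1 averages unlike hairpins. Smc3 shRNA1, at 69.3 and 65.2, lay above both controls, at 52.7 and 63.0. Smc3 shRNA2 gave 53.5 and 47.1. Of the 3 genes for E proteins, which Id proteins bind, Tcf4 was higher with Smc3 depletion (0.74 ± 0.09, limma adjusted p = 0.00262) and Tcf3 and Tcf12 were called in neither. In the direct difference of the depletions 6 of the 67 were higher and 7 lower with Wapal, which is 19.4% of the list, no more than the 7.66% higher and 14.8% lower over all genes come to. Among them were Bmp7, Acvr2b, Tgfbr3, Neo1 and Tob2, which neither depletion called alone. For Tob2 the Smc3 hairpins lay on opposite sides of the controls, which read 285 and 309. Smc3 shRNA1 gave 396 and 343, and Smc3 shRNA2 gave 213 and 192. For Tgfbr3 the Wapal hairpins split, at 89.2 and 83.6 (shRNA1) and 145 and 117 (shRNA2), against 110 and 125 with Empty Vector.

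**Figure D4:**
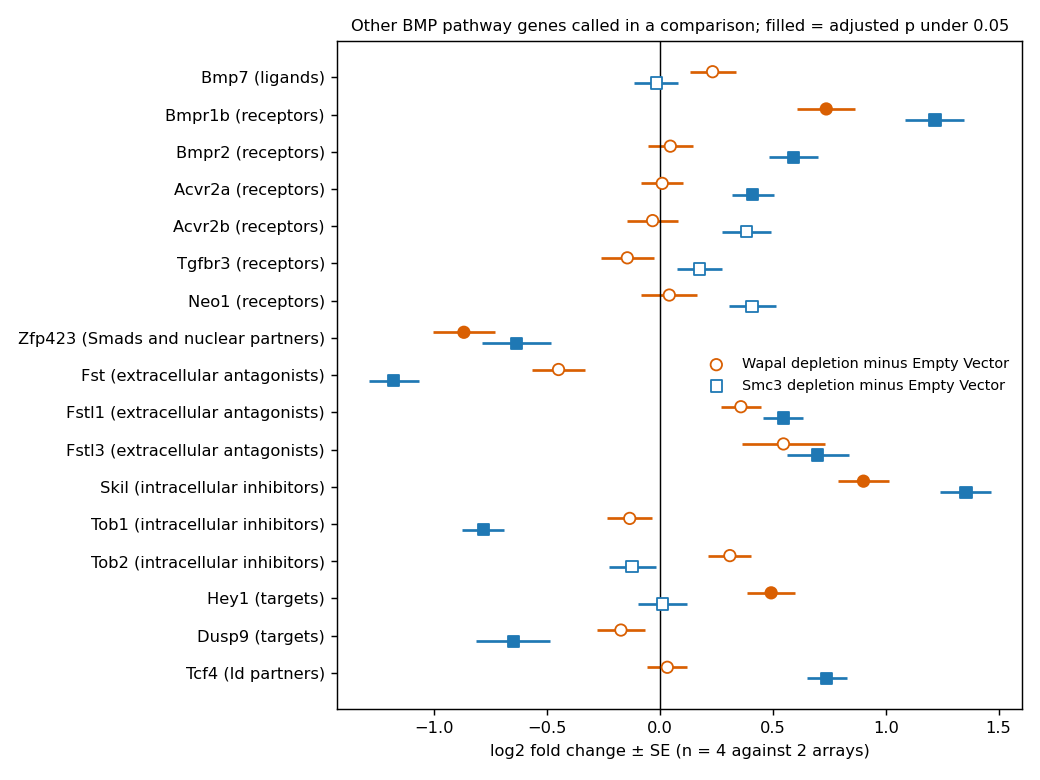
Log2 fold change with Wapal depletion (circles) and Smc3 depletion (squares) against Empty Vector for the pathway genes and Id partners called in a depletion or in the difference of both, with bars of 1 standard error (n = 4 against 2 arrays). Filled symbols have a limma adjusted p under 0.05. Skil and Bmpr1b are filled and to the right in both depletions, Zfp423 is filled and to the left in both, and Fst lies at -1.18 with Smc3 depletion.

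Over the 10 arrays, the log2 values of Id3 followed those of Bmp4 (Pearson r = 0.907) and those of Id4 followed Smad6 (r = 0.907), while Bmpr1a ran against Id4 (r = -0.800) and Id2 against Bmp4 (r = -0.796). These are descriptions over 10 arrays in 5 groups that share their controls and sides, with no test. Among 9689 genes that were not dim, the pattern most like that of each called gene was Fam43a for Bmp4 (r = 0.977), Ypel5 for Id1 (r = 0.950), Gpa33 for Id2 (r = 0.980), Sumo3 for Id3 (r = 0.960), Lpl for Id4 (r = 0.976), Atg14 for Smad6 (r = 0.977) and Trim33 for Smad7 (r = 0.996). Next to Bmp4 came Eras (r = 0.973) and Eif4ebp1 (r = 0.969), next to Id2 Mgst3 (r = 0.976) and Pde1b (r = 0.972), and next to Id4 Itpka (r = 0.975) and Tob1 (r = 0.972). Next to Id1 were Gpx7 (r = 0.946) and Coq3 (r = 0.943), to Id3 Mphosph10 (r = 0.957) and Pdcd6 (r = 0.951), to Smad6 Mto1 (r = 0.966) and Niban1 (r = 0.965), and to Smad7 Aqp3 (r = 0.966) and Slc6a8 (r = 0.966).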

How the data were processed

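Total RNA of each sample was hybridised to 1 Affymetrix mouse array. The authors normalised the CEL files by RMA, and the deposited table holds 1 linear intensity per probe set and array. The RMA version and the arrays normalised together are not given in the sources used here. RMA forces nearly equal distributions on the arrays, which hides a shift shared by most genes and compresses differences of dim probe sets. Of 45101 probe sets, 64 controls were left out. Of the 45037 tested, 34945 carry 1 gene symbol, 932 several and 9160 none. Groups came from the sample labels, and the labels of 2 Wapal arrays stand the other way round in the study's own table, which was not used. Under the labels used, Wapl levels of each pair were alike.

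On log2 intensities, lmFit and eBayes of limma 3.58.1 (in R 4.3.3) fitted 1 mean for each group. Wapal depletion and Smc3 depletion are the mean of both shRNA groups minus Empty Vector on the 6 arrays concerned, and their difference was fitted on all 10. Tests were two-sided, p-values were adjusted by Benjamini-Hochberg over 45037 probe sets, and the threshold was 0.05. The number of arrays limits the precision. The labels do not say whether replicates came from separate cultures, so p-values measure the spread between arrays of the same group, which may be technical. They leave out the spread between the hairpins of a target. The methods' t-test pools both hairpins. With Smc3 depletion it gave Id2 a standard error of 0.55 (t-test, unadjusted p = 0.110) and Smad6 0.37 (t-test, unadjusted p = 0.0606). The genes and lists were chosen with earlier results of these data known. Genes outside the 10 were named where their brightest probe set was called in either depletion or their difference. For likeness, the 3 genes with the highest r were named for each called gene. The script was tested on simulated data. Alternatives were quantile normalisation, an offset of 16 before log2, omission of dim probe sets (mean log2 under 6), all 10 arrays in 1 model, the replicate number as a block, the side of the array as a covariate, an intensity trend, the methods' t-test, other probe sets of a gene, the 8 shRNA arrays alone and each array left out. The fit with the side held 1 mean per target in place of 1 per hairpin. Promoters came from RefSeq tables of build GRCm38.p6. The build behind the array design is not given in the sources used here.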

Additional observations from a re-analysis of the deposited data

Results flagged for a closer look

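The 2 depletions were tested against each other, and 8 of the 10 genes differed (log2, Wapal depletion minus Smc3 depletion, limma adjusted p). Bmp4 (0.88, 0.000192), Id1 (0.60, 0.00317), Id3 (0.40, 0.0167), Id4 (1.27, 8.85e-05), Smad6 (0.73, 0.00202) and Bambi (0.43, 0.00301) were higher with Wapal depletion. Id2 (-0.93, 0.000452) and Bmpr1a (-0.25, 0.0316) were higher with Smc3 depletion. All of these rest on 4 arrays of each depletion.

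Hairpins against the same target also differed. Between the Wapal hairpins Id4 was lower with shRNA1 (-0.91, limma adjusted p = 0.0422), a call lost without any 1 of the 4 Wapal arrays (limma adjusted p from 0.184 to 0.271). Its other probe sets were not called (limma adjusted p = 0.0503 and 0.113). Between the Smc3 hairpins Id1 (0.67, 0.0271), Id2 (1.19, 0.00596) and Smad6 (0.78, 0.0201) were higher with shRNA1, but these calls depend on single arrays. With 1 array left out, the Id1 call was lost without Smc3 shRNA1 replicate 1 or either Smc3 shRNA2 array (limma adjusted p up to 0.174), the Smad6 call without either Smc3 shRNA1 array or Smc3 shRNA2 replicate 2 (up to 0.129), and the Id2 call without Smc3 shRNA2 replicate 1 (0.0684). Each of these comparisons has 2 arrays a hairpin and runs along the array sides, so hairpin and side cannot be told apart.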

How the results depend on the processing

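Of 584 values of single genes under alternatives, 495 kept their direction and their side of the threshold, 70 lost the call, 4 gained one and 15 changed sign. All sign changes were in values that had not been called, apart from the Bmpr1a difference below. With Wapal depletion Bmpr1a became 0.011 with quantile normalisation and 0.020 and 0.076 on 2 other probe sets, and with 1 array left out it ran from -0.14 to 0.015 (above 0 without Empty Vector replicate 1), Bmp4 from -0.19 (without Empty Vector replicate 2) to 0.23 and Id3 from -0.39 to 0.078 (without Empty Vector replicate 1). With Smc3 depletion Bmpr1a became -0.14, -0.0067 and -0.17 on 3 other probe sets. In the difference of the depletions Bmpr1a became 0.19 on 1 other probe set, and Bmp2 became -0.034 with quantile normalisation and ran from -0.025 to 0.038 with 1 array left out. The cause was not tested.

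With Wapal depletion, 1 gene (Smad7) was called lower instead of 0 with the offset, with dim probe sets left out, with all 10 arrays in 1 model and with the intensity trend, and 0 instead of 1 higher with the methods' t-test after Benjamini-Hochberg. With Smc3 depletion the methods' t-test called 0 higher without and after Benjamini-Hochberg and 0 lower after it, and leaving out 1 array left 3 to 4 lower instead of 5 (3 for each array but Empty Vector replicate 2). In the difference, 1 gene was lower instead of 2 with quantile normalisation and with the side as a covariate, 2 were higher and 0 lower with the methods' t-test after Benjamini-Hochberg, and leaving out 1 array gave 1 to 2 lower and 5 to 6 higher. The Bmpr1a difference was lost without any of the 8 shRNA arrays (limma adjusted p up to 0.0983), and the Id3 difference without Wapal shRNA1 replicate 2, Wapal shRNA2 replicate 2, Smc3 shRNA1 replicate 1 or Smc3 shRNA2 replicate 1 (limma adjusted p from 0.0510 to 0.0549). Between the Wapal hairpins 2 genes were lower with dim probe sets left out, all 10 arrays and the trend, the methods' t-test gave 3 lower and 2 higher without and 0 lower after Benjamini-Hochberg, and leaving out 1 array gave 0 to 1, with 0 where any of the 4 Wapal arrays was missing (Id4, limma adjusted p from 0.184 to 0.271). Between the Smc3 hairpins the methods' t-test gave 1 higher without and 0 after Benjamini-Hochberg, and leaving out 1 array gave 1 to 3, with 1 without Smc3 shRNA1 replicate 1 or either Smc3 shRNA2 array.

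The replicate numbers do not pair the samples, since the correlations of replicate differences between groups ran from -0.156 to 0.0569. With the replicate number as a block, 2 of 34 results changed: Smad7 with Smc3 depletion (limma adjusted p = 0.0588) and Id4 between the Wapal hairpins (limma adjusted p = 0.0582), which left 0 genes lower there, and 0 values changed sign. Over all probe sets the counts ranged widely: Wapal depletion called 937 higher (163 to 1636 under alternatives) and 1724 lower (326 to 2938), Smc3 depletion 1900 higher (893 to 2581) and 1534 lower (641 to 2400), and the difference 3022 higher (1673 to 3552) and 4798 lower (3291 to 5651). Between the Wapal hairpins it was 177 higher (0 to 1137) and 321 lower (0 to 1181), and between the Smc3 hairpins 2635 higher (563 to 3500) and 1819 lower (275 to 2736). The methods' t-test after Benjamini-Hochberg called 0 and 3 probe sets with Wapal depletion and 0 and 0 with Smc3 depletion, beside 3365 and 3691, and 2650 and 2835, unadjusted. Of the 20 probe sets, that of Bmp2, 1 of Id2, 1 of Id4 and 2 of Bmpr1a are dim.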
